A study of Homo sapiens with 8 samples.

Results

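The genes described here are 10 enzymes of fatty acid synthesis, elongation and desaturation, FASN, ACACA, ACLY, ACSS2, SCD, ELOVL5, ELOVL6, FADS1, FADS2 and AACS, followed across 4 LNCaP lines that differ in METTL3. They were taken by symbol from a table of 27140 genes, and all 10 were among the 15289 genes with enough counts to be tested. LNCaP is an established prostate cancer line of human origin. METTL3 is the enzyme that places N6-methyladenosine on messenger RNA. RNA was sequenced from stable lines made with lentivirus and selected with puromycin, with 2 libraries per line. The mutant rescue carried a hairpin against METTL3 and a hairpin-resistant METTL3 without catalytic activity. The wild-type rescue carried the same hairpin and a resistant wild-type METTL3. The knockdown carried that hairpin with a vector, and the control a control hairpin with a vector. All 4 lines therefore went through infection and selection, and whether a line is a clone or a pool of cells is not said. What METTL3 does and what arose when a line was made cannot be told apart here. Separate cultures are not named for the 2 libraries of a line, and p-values measure only the spread between these libraries.

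Cells build fatty acids in the cytosol from acetyl-CoA, which ACLY makes from citrate and ACSS2 from acetate. ACACA turns acetyl-CoA into malonyl-CoA, the committed step, and the large multi-domain enzyme FASN strings these units into palmitate. ELOVL enzymes then lengthen the chain, SCD and the FADS enzymes add double bonds, and AACS activates acetoacetate, a ketone body, for lipid synthesis. Transcription of most of these genes is driven by the SREBP factors, encoded by SREBF1 and SREBF2, which stay in the endoplasmic reticulum with SCAP and INSIG proteins when sterols are plentiful. Prostate tumours are known for high FASN.

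The libraries held 15200343 to 17893241 counts. METTL3 had 333 and 334 CPM (counts scaled to the size and composition of the library) in the mutant rescue, 309 and 324 for the wild-type rescue, 26.2 and 31.3 for the knockdown, and 68.3 and 68.4 for the control. Reads of the introduced and the resident METTL3 fall on the same gene and were not separated. All 10 luminal prostate markers were detected. Among markers of other cell types, COL1A2 was at 0 in every library and PTPRC at 0 in 7 of 8 libraries, PECAM1 was at 0.132 to 0.386 CPM, VIM at 7.01 to 14.7 and COL1A1 at 76.3 to 103. CD68, a macrophage marker, had 20.6 and 22.0 CPM in the mutant rescue, 15.5 and 18.1 for the wild-type rescue, 17.9 and 18.4 for the knockdown, and 26.2 and 23.5 for the control. CD68 was lower on knockdown (log2 fold change -0.45, SE 0.08, edgeR adjusted p = 1.24e-06). It was higher in the mutant rescue than in the wild-type rescue (0.34, SE 0.09, edgeR adjusted p = 8.73e-04). FASN took these directions too, and the part of CD68 in the results was not tested. From the same list, COL1A1 was called higher in both comparisons (log2 fold change 0.12 and 0.10, SE 0.04 each) and VIM was called in neither. The summed level of the luminal markers was 8389 to 8408 CPM for the mutant rescue, 8688 to 8732 for the wild-type rescue, 8567 to 8613 for the knockdown and 10424 to 10479 for the control. It thus separated the hairpin lines from the control, and its part in the results below was not tested. The summed level of the 6 other markers was 125 to 133, 119.9 to 123, 107 to 115 and 109.96 to 111 CPM in that order of lines, most of it from COL1A1, and its part was likewise not tested.

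The enzymes fell into separate patterns across the lines. FASN, SCD, FADS1 and FADS2 were lower in the knockdown and the wild-type rescue than in the mutant rescue and the control. For FADS1 and FADS2 the mutant rescue stayed below the control. ELOVL5, ACLY and AACS were low in all 3 lines with the METTL3 hairpin. ACSS2 was high in the mutant rescue, ACACA was lowest in the wild-type rescue, and ELOVL6 was called in none of the 6 comparisons. A gene was called when its p from edgeR's quasi-likelihood test, Benjamini-Hochberg adjusted over all tested genes, was under 0.05. Libraries of 2 lines did not overlap for 57.7% to 77.7% of all tested genes, depending on the comparison, so such separation is common here. In bulk RNA, fewer cells of a type and less RNA per cell cannot be told apart. Together the 10 genes had 6395 ± 45.2 CPM in the mutant rescue, 4280.2 ± 65.1 for the wild-type rescue, 4651 ± 44.7 for the knockdown and 6271 ± 1.09 in the control (SD, n = 2 each). FASN alone made up 50.7% to 51.7% of these counts in the mutant rescue, 36.9% to 37.6% for the wild-type rescue, 37.9% to 38.3% for the knockdown and 43.2% to 43.4% for the control.

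**Figure D1:**
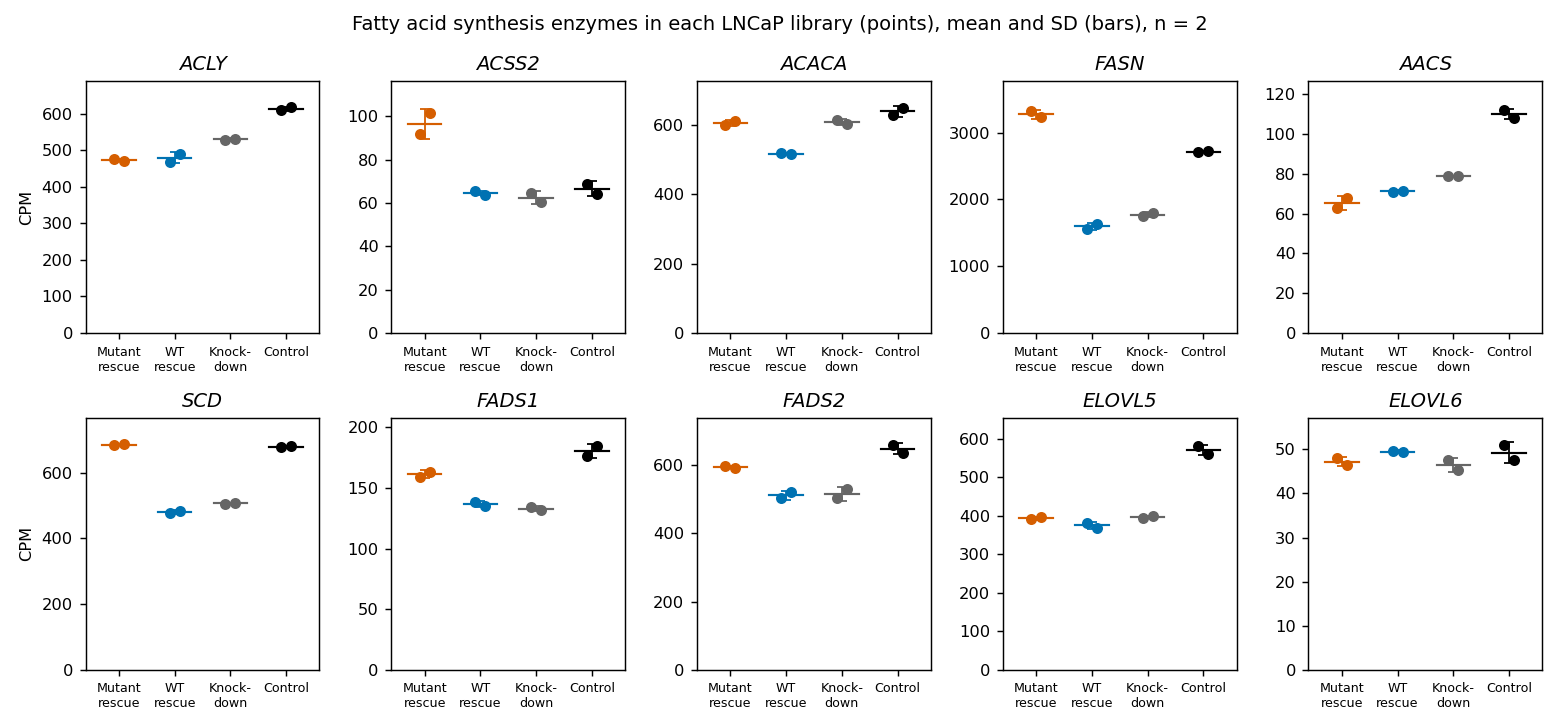
Level in CPM (linear axes from 0) of each enzyme in the mutant rescue, wild-type rescue, knockdown and control libraries; points are libraries, horizontal bars means and error bars SD (n = 2). FASN reached 3321 and 3227 CPM in the mutant rescue, above all other libraries, whereas ELOVL5 was highest in the control, at 579.6 and 560.2 CPM.

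Per kilobase of gene length, FASN was the highest of the 10 in every line, at 387 CPM per kb in the mutant rescue, 189 in the wild-type rescue, 209.5 in the knockdown and 321 in the control. FADS2, which starts the desaturation of polyunsaturated fatty acids, came next, at 154, 133, 134 and 168 CPM per kb in the same order. ELOVL6 was the lowest, at 13.9, 14.6, 13.7 and 14.5 CPM per kb, and ACSS2 ranged between 19.6 in the knockdown and 30.2 in the mutant rescue. In the control, ELOVL5 at 144 and ACLY at 141 CPM per kb were neighbours in this order. In the mutant rescue SCD at 125 CPM per kb had passed both, since ACLY stood at 108 and ELOVL5 at 99.4.

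The enzymes that supply acetyl-CoA differed from each other. ACLY had 476 and 472 CPM in the mutant rescue, 469 and 491 for the wild-type rescue, 528 and 532 for the knockdown, and 610.3 and 618 for the control. Every hairpin library lay below both control libraries, and the rescues lay below the knockdown. Its log2 fold change over the control was -0.37 (SE 0.02) in the mutant rescue, -0.35 (SE 0.02) for the wild-type rescue and -0.21 (SE 0.02) for the knockdown, with edgeR adjusted p of 6.32e-37, 9.78e-35 and 1.15e-17. ACSS2 had 91.6 and 101 CPM in the mutant rescue, 65.4 and 63.8 for the wild-type rescue, 64.7 and 60.3 for the knockdown, and 69.0 and 64.3 for the control. Both mutant rescue libraries lay above the other 6, which overlapped each other. ACSS2 rose in the mutant rescue by 0.58 on the log2 scale over the wild-type rescue (SE 0.05, edgeR adjusted p = 9.15e-23) and by 0.54 over the control (SE 0.05). On knockdown its log2 fold change was -0.09 (SE 0.05, edgeR adjusted p = 0.133). In the gene annotation, ACLY shares 156 exon bases with an antisense gene on the other strand. Whether strand was used in counting is not given in the sources used here, so such reads may not be told apart.

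ACACA, acetyl-CoA carboxylase, had 598 and 611 CPM in the mutant rescue, 518 and 515 for the wild-type rescue, 615 and 601 for the knockdown, and 628 and 648 for the control. The wild-type rescue stood apart as the lowest line, and the mutant rescue overlapped the knockdown. ACACA was 0.23 higher on the log2 scale in the mutant rescue than in the wild-type rescue (SE 0.02, edgeR adjusted p = 7.62e-19), and its log2 fold change on knockdown was -0.07 (SE 0.02, edgeR adjusted p = 0.00285). The knockdown call ended without control replicate 2 (0.166) or knockdown replicate 2 (0.0730) and with DESeq2 (0.0548).

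FASN had 3321 and 3227 CPM in the mutant rescue, 1563 and 1627 for the wild-type rescue, 1749 and 1796 for the knockdown, and 2709.8 and 2721 for the control. No library of a line overlapped another line, a separation common among all tested genes (57.7% to 77.7% in a given comparison). FASN was 2.05-fold higher in the mutant rescue than in the wild-type rescue (log2 fold change 1.04, SE 0.02, edgeR adjusted p = 1.98e-100) and 1.85-fold higher than in the knockdown (log2 0.89, SE 0.02). The mutant rescue also exceeded the control, by 0.27 on the log2 scale (SE 0.02, edgeR adjusted p = 1.83e-31), and FASN was the member with the largest positive log2 fold change between the rescues. On knockdown FASN fell by 0.62 on the log2 scale relative to the control (SE 0.02, edgeR adjusted p = 2.55e-70).

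**Figure D2:**
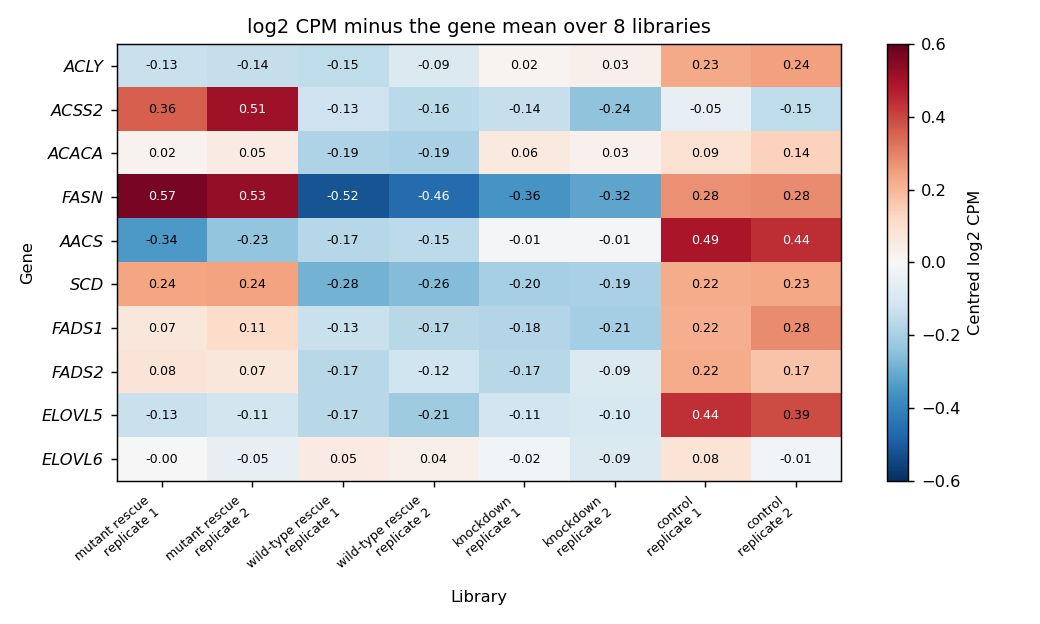
Centred log2 CPM (each gene's log2 CPM minus its mean over the 8 libraries) for the 10 enzymes in rows and the 8 libraries in columns, ordered as mutant rescue, wild-type rescue, knockdown and control. FASN spans 0.57 to -0.52, while ELOVL6 stays between 0.08 and -0.09.

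Among the desaturases, SCD, which introduces a double bond into saturated acyl chains, had 684 and 687 CPM in the mutant rescue, 477 and 485 for the wild-type rescue, 506 and 508 for the knockdown, and 677 and 682 for the control. The mutant rescue and the control lay close together, and the other 2 lines lay below them. SCD was 0.51 higher on the log2 scale in the mutant rescue than in the wild-type rescue (SE 0.02, edgeR adjusted p = 4.85e-53), fell by 0.42 on knockdown (SE 0.02), and stood at 0.01 on that scale in the mutant rescue over the control (SE 0.02, edgeR adjusted p = 0.601). FADS1 had 159 and 164 CPM in the mutant rescue, 138 and 135 for the wild-type rescue, 134 and 132 for the knockdown, and 177 and 185 for the control. FADS2 had 596 and 591, 502 and 519.8, 502 and 531, and 659 and 636 CPM in the same order of lines. For both genes the mutant rescue lay between the control and the other 2 lines, and a difference between the wild-type rescue and the knockdown was not called by edgeR (adjusted p = 0.452 for FADS1 and 0.742 for FADS2). FADS1 rose by 0.24 (SE 0.03) and FADS2 by 0.21 (SE 0.02) on the log2 scale in the mutant rescue over the wild-type rescue. On knockdown FADS1 fell by 0.44 (SE 0.03) and FADS2 by 0.33 (SE 0.02).

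FADS1 and FADS2 are neighbouring genes on chromosome 11 on opposite strands, with annotated start sites 599 to 800 bases apart. Their exons share 490 bases in the annotation, and FADS2 shares 49 with FEN1 on its own strand, so counts of the pair are not wholly independent unless strand was used in counting. The start regions of the pair and of SCD are printed because their transcripts moved in the same directions. Each window runs from 250 bases before to 50 bases after an annotated start site, 5′ to 3′ on the gene's strand, from RefSeq on GRCh38.p14. Capitals mark matches on either strand to CCAAT (bound by NF-Y), GGGCGG (bound by Sp1), CACGTG (an E-box) or TCACNCCAC (a sterol regulatory element). The SCD window is chr10:100346983-100347282 on the plus strand, the FADS1 window chr11:61816954-61817253 on the minus strand, and the FADS2 window, 1 of 2 for this gene, chr11:61816154-61816453 on the plus strand.
SCD: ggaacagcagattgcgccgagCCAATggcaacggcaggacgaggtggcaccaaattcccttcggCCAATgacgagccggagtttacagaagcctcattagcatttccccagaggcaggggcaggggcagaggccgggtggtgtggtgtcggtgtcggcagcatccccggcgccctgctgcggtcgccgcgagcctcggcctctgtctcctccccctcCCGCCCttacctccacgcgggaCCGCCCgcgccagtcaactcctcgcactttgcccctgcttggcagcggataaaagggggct
FADS1: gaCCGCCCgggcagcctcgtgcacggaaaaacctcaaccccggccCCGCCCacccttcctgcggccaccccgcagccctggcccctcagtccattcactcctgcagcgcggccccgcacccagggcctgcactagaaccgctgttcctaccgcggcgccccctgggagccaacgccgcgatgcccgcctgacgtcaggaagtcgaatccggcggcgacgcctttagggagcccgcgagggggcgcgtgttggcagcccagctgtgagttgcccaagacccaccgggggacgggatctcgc
FADS2: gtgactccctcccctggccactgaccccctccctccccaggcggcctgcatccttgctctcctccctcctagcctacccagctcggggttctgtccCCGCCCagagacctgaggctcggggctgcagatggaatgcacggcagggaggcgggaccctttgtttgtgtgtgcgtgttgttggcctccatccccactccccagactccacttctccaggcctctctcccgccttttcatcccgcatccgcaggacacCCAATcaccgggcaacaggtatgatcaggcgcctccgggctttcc
The SCD window holds CCAAT 2 times and the reverse complement of GGGCGG 2 times. The FADS1 window holds CCGCCC, that reverse complement, 2 times and no CCAAT, and the FADS2 window holds CCAAT and CCGCCC 1 time each. The other FADS2 window, which overlaps it, holds none of the 4 motifs. A match is a description of the letters and not a site of binding.

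ELOVL5, which lengthens polyunsaturated chains, had 389.9 and 395 CPM in the mutant rescue, 381 and 369 for the wild-type rescue, 395 and 399 for the knockdown, and 579.6 and 560.2 for the control. All 6 hairpin libraries lay below the control libraries. Its log2 fold change over the control was -0.54 (SE 0.02) in the mutant rescue, -0.61 (SE 0.02) for the wild-type rescue and -0.52 (SE 0.02) for the knockdown, with edgeR adjusted p of 6.99e-53, 2.68e-59 and 9.51e-52. Between the rescues the log2 fold change was 0.07 (SE 0.02, edgeR adjusted p = 0.0116). It was not called with DESeq2 (0.0619), or when replicate 2 of the mutant rescue (0.105) or of the wild-type rescue (0.201) was left out. ELOVL6, which extends palmitate, had 48.0 and 46.5 CPM in the mutant rescue, 49.7 and 49.3 for the wild-type rescue, 47.5 and 45.3 for the knockdown, and 50.9 and 47.6 for the control. None of its differences was called, with log2 fold changes between -0.08 and 0.09. The ELOVL5 window, chr6:53348901-53349200 on the minus strand, is printed in the same way because this gene kept the low level in the mutant rescue that SCD and the FADS pair did not.
ELOVL5: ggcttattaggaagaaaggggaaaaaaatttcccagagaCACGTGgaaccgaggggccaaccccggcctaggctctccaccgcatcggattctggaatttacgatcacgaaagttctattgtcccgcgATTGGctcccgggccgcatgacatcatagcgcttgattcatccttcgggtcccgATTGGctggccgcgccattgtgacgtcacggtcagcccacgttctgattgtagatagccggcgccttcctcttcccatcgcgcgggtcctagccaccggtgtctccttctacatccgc
It holds the reverse complement of CCAAT 2 times and CACGTG 1 time.

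AACS had 62.8 and 67.7 CPM in the mutant rescue, 70.7 and 71.6 for the wild-type rescue, 79.0 and 79.0 for the knockdown, and 112 and 108 for the control. No library of a line overlapped another line, a separation common among all tested genes (57.7% to 77.7% in a given comparison). The mutant rescue was the lowest line for AACS. Over the control its log2 fold change was -0.75 (SE 0.04) in the mutant rescue, -0.63 (SE 0.04) for the wild-type rescue and -0.48 (SE 0.04) for the knockdown (edgeR adjusted p of 1.40e-35, 3.51e-29 and 2.00e-20). The difference between the rescues, -0.12 on the log2 scale (SE 0.05, edgeR adjusted p = 0.0261), was not called with DESeq2 (0.134), without a filter on low counts (0.0569), or when replicate 1 of the mutant rescue (0.364) or either library of the wild-type rescue (0.0543 and 0.129) was left out. A related pseudogene, AACSP1, is listed on its own row with 94 to 138 counts per library, against 950 to 1771 for AACS, and reads that match both cannot be assigned from these counts.

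The knockdown against the control asks what changes when METTL3 is depleted. Of the 10 enzymes 8 fell and none rose, while 25.1% of all tested genes were called lower and 22.9% higher. A change of at least 0.5 on the log2 scale was reached by FASN and ELOVL5, that is by 2 of 10, against 11.4% of all genes. Without control replicate 1 that count was 1, because ELOVL5 then stood at -0.50, just short of the limit. The median log2 fold change was -0.38 over the 10 enzymes and -0.01 over all tested genes.

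Adding wild-type METTL3 to the knockdown asks what returns. None of the 10 enzymes rose and 6 fell, against 10.8% of all genes called higher and 13.2% called lower. The falls were small, with ACACA at -0.24 (SE 0.02), FASN and AACS at -0.15 (SE 0.02 and 0.05), ACLY at -0.14 (SE 0.02), and ELOVL5 and SCD at -0.08 (SE 0.02 each) on the log2 scale. No member reached 0.5, which lies near the share of all genes, 1.26%. The median log2 fold change was -0.08 over the 10 enzymes and 0.01 over all genes. Longer genes were lower in this comparison: the median log2 fold change was -0.07 in the longest and 0.08 in the shortest of 3 equal length classes. These medians were -0.07 and 0.07 in the mutant rescue over the knockdown, and 0.04 and -0.04 in the knockdown over the control. With the length trend removed 4 members were lower, and FASN (-0.04, edgeR adjusted p = 0.134) and SCD (-0.02, edgeR adjusted p = 0.579) were not called. AACS was not called with DESeq2 (0.0571) or without knockdown replicate 1 (0.0508), ELOVL5 without wild-type rescue replicate 2 (0.115), and SCD without wild-type rescue replicate 1 (0.0566).

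Inactive METTL3, added to knockdown cells, was compared with the vector. FASN, ACSS2, SCD, FADS1 and FADS2 rose, at log2 fold changes of 0.89 (SE 0.02), 0.63 (SE 0.05), 0.44 (SE 0.02), 0.28 (SE 0.03) and 0.20 (SE 0.02). AACS fell by 0.28 (SE 0.05) and ACLY by 0.16 (SE 0.02), and 3 members were not called. These 5 rises and 2 falls stand beside 25.9% and 25.8% of all genes. FASN and ACSS2, 2 of 10, reached 0.5, as did 12.2% of all genes. The median was 0.11 over the 10 enzymes and 0.00 over all genes. ACACA stood at -0.01 here (SE 0.02, edgeR adjusted p = 0.766), and was called higher at 0.13 (1.29e-08) with the length trend removed.

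The rescues differ by their labels in whether the introduced METTL3 is active. In the mutant rescue 7 enzymes were higher than in the wild-type rescue and 1, AACS, was lower, against 21.0% and 20.3% of all tested genes. FASN, ACSS2 and SCD reached a log2 fold change of 0.5, that is 3 of 10, against 6.07% of all genes. The median was 0.22 over the 10 enzymes and 0.00 over all genes. ACLY and ELOVL6 were not called, at -0.02 (SE 0.02) and -0.07 (SE 0.05). This comparison shares no library with knockdown against control. FASN, ACACA, SCD, ELOVL5, FADS1 and FADS2 were lower in the knockdown than in the control and higher in the mutant rescue than in the wild-type rescue. That pattern held for 6 of 10 members and for 6.83% of all tested genes, which make up 27.3% of the genes that fell on knockdown and 32.6% of those higher in the mutant rescue. With the DESeq2 Wald test it held for 4 of 10 members, without ACACA and ELOVL5, and for 3.79% of the same genes.

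**Figure D3:**
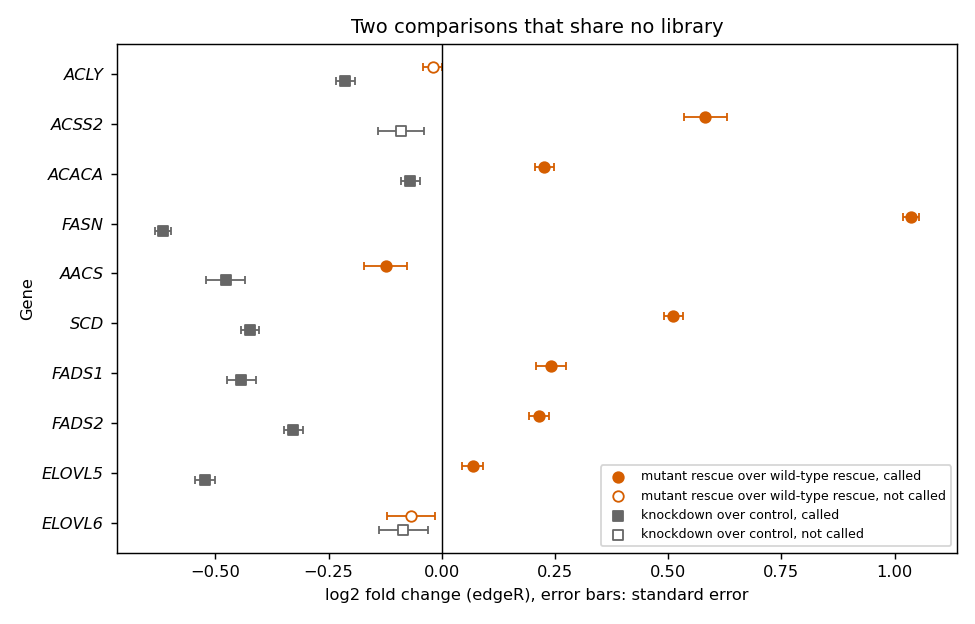
Log2 fold change (edgeR, error bars 1 standard error) of the 10 enzymes for the mutant rescue over the wild-type rescue (circles) and the knockdown over the control (squares); filled symbols passed an adjusted p of 0.05. FASN lies at 1.04 and -0.62, whereas ELOVL6 is open in both.

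Set against the control, the lines parted further. In the mutant rescue FASN and ACSS2 were higher and 6 members lower, against 29.1% and 29.7% of all genes, and SCD and ELOVL6 were not called. ACSS2, ELOVL5 and AACS passed 0.5 in either direction, beside 19.7% of all genes. FADS1 (-0.16, SE 0.03) and FADS2 (-0.13, SE 0.02) remained below the control. The fall of ACACA (-0.08, SE 0.02) was not called without control replicate 2 (edgeR adjusted p = 0.0834). In the wild-type rescue 8 members were lower and none higher, against 25.5% and 23.8% of all genes. Those that reached 0.5 were FASN at -0.77 (SE 0.02), AACS and ELOVL5, beside 11.2% of all genes. The comparisons against the control share its libraries, as do those against the knockdown, and are not independent of each other.

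The genes of the SREBP system were listed with the enzymes. Of 16 regulators of lipid synthesis, all tested, 9 fell and 5 rose on knockdown, beside 25.1% and 22.9% of all genes. Between the rescues, 6 were higher and 2 lower in the mutant rescue, beside 21.0% and 20.3% of all genes. Their median log2 fold change was -0.13 and 0.05 in these comparisons, against -0.01 and 0.00 over all tested genes. SREBF1 had 809 and 792 CPM in the mutant rescue, 603 and 606 for the wild-type rescue, 554 and 574 for the knockdown, and 792 and 802 for the control. Its mutant rescue libraries overlapped the control, and the other lines lay below. SREBF1 was 0.40 higher on the log2 scale in the mutant rescue than in the wild-type rescue (SE 0.02, edgeR adjusted p = 1.81e-42) and fell by 0.50 on knockdown (SE 0.02, edgeR adjusted p = 3.73e-53). INSIG1, which holds SCAP in the endoplasmic reticulum and is itself a known SREBP target, had 219 and 216 CPM in the mutant rescue, 87.5 and 89.1 for the wild-type rescue, 78.5 and 70.9 for the knockdown, and 99.9 and 95.1 for the control. It was 1.30 higher on the log2 scale in the mutant rescue than in the wild-type rescue (SE 0.04). SREBF2, named after its values were seen, was 0.40 higher there (SE 0.02) and fell by 0.26 on knockdown (SE 0.02). PPARGC1B, a coactivator, went the other way between the rescues, with 11.1 ± 1.12 CPM in the mutant rescue and 14.8 ± 0.472 in the wild-type rescue (SD, n = 2 each, log2 fold change -0.41, SE 0.10). MBTPS2, also among the 16, went the other way in both comparisons, at -0.26 between the rescues and 0.32 on knockdown (SE 0.05 each). In the wild-type rescue over the knockdown, where FASN stood at -0.15, SREBF1 was at 0.10 (SE 0.02), INSIG1 at 0.24 (SE 0.04) and SREBF2 at -0.09 (SE 0.02). FASN was not called there with the length trend removed (-0.04, edgeR adjusted p = 0.134).

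**Figure D4:**
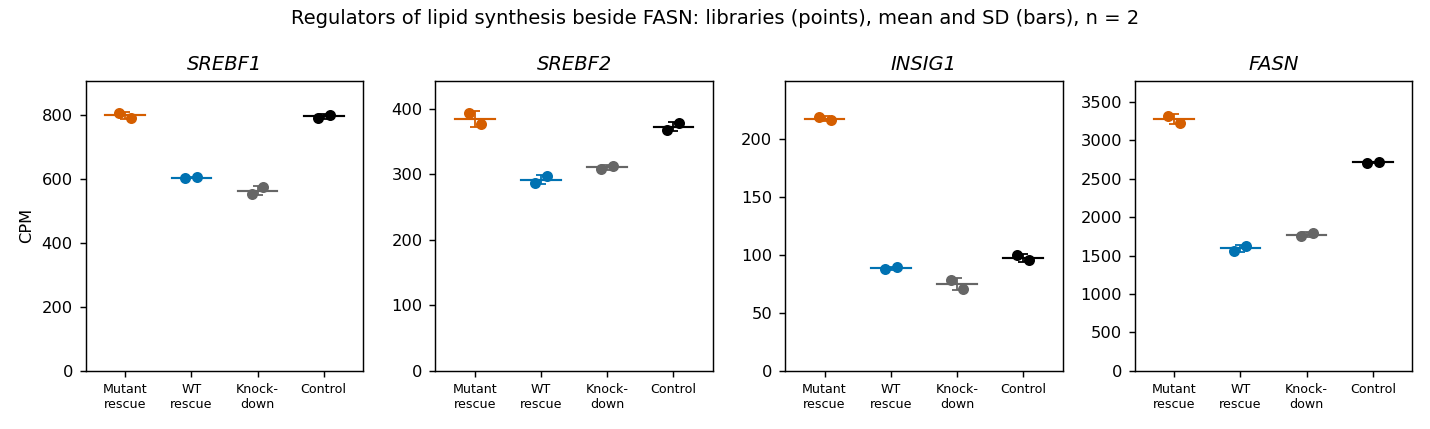
Level in CPM (linear axes from 0) of SREBF1, SREBF2, INSIG1 and, for comparison, FASN by line; points are libraries, horizontal bars means and error bars SD (n = 2). SREBF1 in the mutant rescue (809 and 792 CPM) overlaps the control, whereas INSIG1 (219 and 216 CPM) lies above it.

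Genes that feed or use fatty acids were counted in the same way. Among 19 tested genes of citrate, NADPH and cofactor supply, 7 rose and 7 fell on knockdown, beside 22.9% and 25.1% of all genes, and 8 were higher and 4 lower in the mutant rescue than in the wild-type rescue, beside 21.0% and 20.3%. The median log2 fold changes were 0.00 and 0.02. AASDHPPT, which attaches the phosphopantetheine arm that FASN needs, had 29.2 ± 0.341 CPM in the mutant rescue, 34.3 ± 0.144 in the wild-type rescue, 35.6 ± 0.221 in the knockdown and 52.7 ± 3.32 in the control (SD, n = 2 each). It fell in every hairpin line, by 0.85 (SE 0.06), 0.62 (SE 0.06) and 0.57 (SE 0.06) on the log2 scale in that order. Malic enzyme ME1, a source of NADPH, rose by 0.44 on knockdown (SE 0.05), and the transketolase TKT was 0.32 higher in the mutant rescue than in the wild-type rescue (SE 0.02).

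Of 32 other tested genes of fatty acid synthesis, activation, elongation and desaturation, 6 rose and 11 fell on knockdown, beside 22.9% and 25.1% of all genes, and 7 were higher and 3 lower in the mutant rescue than in the wild-type rescue, beside 21.0% and 20.3%. The higher counts lay near the share of all genes, and the median log2 fold changes were -0.04 and 0.03. SCD5, a paralog of SCD, rose on knockdown, where SCD fell, with 88.6 ± 5.06 CPM in the knockdown and 61.0 ± 3.97 in the control (SD, n = 2 each, log2 fold change 0.54, SE 0.05). ACSL1, which activates long-chain fatty acids, was 0.35 higher in the mutant rescue than in the wild-type rescue (SE 0.02), and ACBD3 was 0.61 higher (SE 0.04). Among 22 tested genes of glycerolipid assembly and storage, 3 rose and 11 fell on knockdown, beside 22.9% and 25.1% of all genes, and 7 were higher and 3 lower in the mutant rescue than in the wild-type rescue, beside 21.0% and 20.3%. The median log2 fold changes were -0.16 and 0.11. PCYT2, of phosphatidylethanolamine synthesis, fell by 0.73 on knockdown (SE 0.06), and the phosphatidate phosphatase LPIN1 was 0.56 higher in the mutant rescue than in the wild-type rescue (SE 0.05).

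Of 25 tested genes of fatty acid oxidation, 14 rose and 5 fell on knockdown, beside 22.9% and 25.1% of all genes, with a median log2 fold change of 0.16. In the mutant rescue over the control, where FASN was higher, 12 oxidation genes were likewise higher and 2 lower, beside 29.1% and 29.7% of all genes (median log2 fold change 0.09). DECR1, needed to oxidise unsaturated chains, had 43.6 ± 0.349 CPM in the knockdown and 26.3 ± 0.747 in the control (SD, n = 2 each, log2 fold change 0.73, SE 0.06). HADHB, of the mitochondrial trifunctional protein, rose by 0.48 (SE 0.03). Between the rescues 5 oxidation genes were higher and 7 lower in the mutant rescue, beside 21.0% and 20.3% of all genes (median log2 fold change -0.03). CPT1A, which admits fatty acids to mitochondria, was 0.29 lower there (log2 fold change -0.29, SE 0.03). In the mutant rescue over the knockdown, where 25.9% of all genes were higher and 25.8% lower, 6 of the 16 regulators were higher and 4 lower. The counts there were 8 and 7 of 19 for supply, 13 and 5 of 32 for other synthesis, 6 and 4 of 22 for glycerolipids and 7 and 9 of 25 for oxidation. Both counts for glycerolipids and the higher one for oxidation lay near or below the share of all genes. So did the lower ones for the regulators and for other synthesis.

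The transcripts whose profile over the 8 libraries lay nearest to that of FASN were looked up among 11571 other genes averaging 5 CPM or more. The distance was the root mean square difference of centred log2 CPM. The nearest non-members were KNDC1 (0.127), the glucocorticoid-induced gene TSC22D3 (0.131), the endoplasmic reticulum stress gene HERPUD1 (0.138), the stress factor ATF3 (0.138) and B3GALT4 (0.147). KNDC1 and B3GALT4 averaged only 8.97 and 7.74 CPM, against 92.5 for TSC22D3, 96.5 for HERPUD1 and 88.3 for ATF3. TSC22D3 had 117.8 ± 5.51 CPM in the mutant rescue, 62.7 ± 0.299 in the wild-type rescue, 66.2 ± 1.75 in the knockdown and 123 ± 1.29 in the control (SD, n = 2 each). Among the other enzymes SCD was nearest to FASN, at rank 22 (0.203), followed by ACSS2 at rank 187, FADS1 at 317 and FADS2 at 515. AACS, at rank 8057 (0.488), was the farthest.

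Start regions were matched for 9 of the 10 enzymes, all but FASN, in 14 windows of 300 bases. CCAAT was found in 8 of the 14 windows, in 6 genes (ACACA, ACLY, ACSS2, ELOVL5, FADS2 and SCD), and in 34.6% of the 35116 windows of all genes. GGGCGG was found in 11 of the 14 windows, in 8 genes, and in 45.0% of all windows. CACGTG was found in 1 window, that of ELOVL5, and in 7.26% of all windows. TCACNCCAC was found in none of the 14 and in 1.13% of all windows. For so rare a motif, its absence from 14 windows does not set these genes apart, and FASN had no window. Of the genes with CCAAT, ACSS2, SCD and FADS2 were called higher in the mutant rescue over the knockdown, and ACACA, ACLY and ELOVL5 were not. Over the wild-type rescue, ACACA and ELOVL5 were called higher as well. Any part of these motifs in the results was not tested, and several windows of a gene can overlap.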

How the data were processed

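RNA of 8 LNCaP libraries was sequenced, in 4 groups of 2 by their titles. The deposited table holds the raw counts of each gene and library, with gene length in bases as its only column of other kind. Per the submitters' processing notes, CASAVA, STAR 2.5.2b, featureCounts, DESeq2 and hg19 were used; their parameters and the strand setting are not given in the sources used here. Per the labels' protocols, a stranded messenger RNA kit was used.

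The counts went into edgeR 4.0.16 (R 4.3.3). After filterByExpr (minimum count 10, total 15) 15289 of 27140 genes remained; TMM scaled the libraries, also for CPM. The robust quasi-likelihood fit took all 8 libraries with a coefficient for each line and gave 6 two-sided comparisons. "Called" means an adjusted p (Benjamini-Hochberg, all tested genes) below 0.05, and calls "at 0.5" also have an absolute log2 fold change of at least 0.5. The SE is the size of the log2 fold change over the root of F. With 2 against 2 libraries no exact permutation test can reach 0.05. Depth was 15200343 to 17893241 counts per library; there were no molecular identifiers, so sampling statements cover counting error only. The 2 libraries of a line differed only a little beyond sampling noise (chi-square per degree of freedom 1.21 to 1.36). The common coefficient of variation beyond counting error in edgeR was 1.40%. The small p-values and the many calls rest on this narrow spread. Of these steps only the edgeR fit for the knockdown against the control was tested on simulated counts.

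The members, gene lists and tests were chosen with earlier results of these data known. All members are named. Pathway genes come from the 3 largest changes per list and comparison among called genes averaging 5 CPM or more, and the 5 non-members nearest to FASN are named. SREBF2, INSIG1 outside the rescue comparison, and AACSP1 were named after their values were seen. So were MBTPS2, and SREBF1 in the wild-type rescue over the knockdown. Alternatives: size factors or the Wald test of DESeq2 1.42.0, no filter, only the groups compared, the replicate number as a block, the length trend removed (lowess, span 0.3), and each library left out. Start regions (RefSeq, GRCh38.p14) and exon overlaps (GENCODE) are on another build than hg19, and no coordinates were converted.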

Additional observations from a re-analysis of the deposited data

How the results depend on the processing

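With DESeq2 size factors, only the groups compared, or the replicate block, all 60 values of the 10 enzymes (10 in each of 6 comparisons) kept their direction and their call. With the replicate block 8 members were called on knockdown and 8 between the rescues, as without it, and same-numbered libraries did not deviate together (correlation -0.04 to 0.04), so the numbers were not taken as pairs. The DESeq2 Wald test ended 4 member calls, no filter on low counts 1 and removal of the length trend 2. The Wald test called 3991 genes between the rescues, against 6307 with edgeR (554 against 928 at 0.5), and 1907 in the wild-type rescue over the knockdown, against 3673 (49 against 192 at 0.5); the cause was not tested. With the length trend removed, ACACA in the mutant rescue over the knockdown stood at 0.13. Of 240 values with 1 library left out, 11 lost a call and 9, none of them called with all libraries, changed sign. Those lay at -0.023 to 0.0083 for ACACA and -0.0087 to 0.061 for ELOVL6 in the mutant rescue over the knockdown, -0.052 to 0.015 for ACLY between the rescues, -0.0031 to 0.10 for ACSS2 and -0.054 to 0.027 for FADS2 in the wild-type rescue over the knockdown, and -0.10 to 0.0052 for ACSS2 and -0.041 to 0.056 for ELOVL6 in the wild-type rescue over the control. SREBF1 in the mutant rescue over the control lay at -0.0084 to 0.023. Members called at 0.5 on knockdown numbered 1 to 3. With 1 library left out, the other of its line is assumed to vary like the other lines. Depth limits ACSS2, ELOVL6 and AACS most: their standard errors are about 0.05 on the log2 scale.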
